A study of Homo sapiens with 16 samples.

Results

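The genes described here are 8 cell surface genes of adhesion and immune control, namely ICAM1, VCAM1, CD44, CD47, CD274 (PD-L1), PDCD1LG2 (PD-L2), NT5E (CD73) and CD276 (B7-H3). They were chosen by name from the 19970 protein-coding genes of the annotation, and the question was how histone H3 lysine 27 acetylation (H3K27ac), a mark of active promoters and enhancers, changed around them with the cytokine TWEAK, with loss of its receptor Fn14 and between cell lines. For each gene, H3K27ac peaks were recorded in a gene window (the gene body and 50 kb on either side) and in a promoter window (2 kb either side of the start site).

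The peaks came from H3K27ac ChIP-seq of MDA-MB-231 and Hs578T, established cell lines of human triple-negative breast cancer (TNBC). From either line there were CRISPR control cells and Fn14 knockout (KO) cells, the latter made with a Cas9 vector carrying a pair of guides against TNFRSF12A, the gene of Fn14, and tested by western blotting and sequencing. The study's primer list speaks of CRISPR clones, but how many clones each KO line stems from was not given in the sources used here. All cells, controls included, were serum starved for 8 h in Opti-MEM and then received either no cytokine (untreated) or 10 ng/ml of TWEAK over 48 h, given afresh at 24 h. The 8 groups held 2 replicates each, hence 16 peak lists, and the study's methods call its ChIP-seq replicates biological. The labels do not say which lists came from separate cultures, so p-values measure the spread between these lists. The lists held 39544 to 47197 peaks covering 64.2 to 88.9 Mb. Reads are not part of them, so depth is unknown and the KO itself could not be checked. The median −log10 q-value of a list was 5.79 to 7.69 in MDA-MB-231 Fn14 KO lists, against 9.44 to 10.8 in MDA-MB-231 control lists and 7.86 to 9.04 in Hs578T lists of either genotype. Of the marker genes checked, VIM, CAV1, EGFR, AXL, MSN and CD44 (mesenchymal) carried a promoter peak in all 16 lists, while ESR1, PGR and GATA3 (luminal), CDH1 (epithelial), PTPRC and CD3E (leukocyte) and CDH5 and KDR (endothelial) carried none in any list. KRT8 and EPCAM had promoter peaks in all 16 lists, ERBB2 in 12, CD14 and PECAM1 in 6 each and FOXA1 in 2.

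TWEAK is a cytokine of the tumour necrosis factor family, and binding to Fn14 is known to activate NF-κB and mitogen-activated protein kinase signalling, which feed into κB and AP-1 sites in DNA. ICAM1 and VCAM1 are adhesion molecules that bind leukocyte integrins and are textbook NF-κB target genes in endothelium, and CD44 is the main receptor for hyaluronan. The other members restrain immune cells: CD47 binds SIRPα on macrophages and blocks phagocytosis, CD274 and PDCD1LG2 are the ligands of PD-1 on T cells, NT5E makes extracellular adenosine from AMP, and CD276 belongs to the B7 family of T cell ligands.

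The DNA under some of the elements on which the results below turn is printed here so that the letters stand beside the values. Shown are 250 bases before the ICAM1 start site (RefSeq, GRCh38.p14) and the central 300 bases, in hg38, of 3 merged peak regions: a region upstream of CD44 that gained a peak with TWEAK in control cells of both lines, and the regions upstream of CD47 and CD44 with the largest TWEAK difference between control and Fn14 KO cells, among regions outside the start sites with a peak in every list. All are read on the plus strand. Capitals mark matches to an AP-1 motif (TGANTCA) or a κB motif (GGANNNTCC or GGGANTTCC, the last string added after the windows had been read) on either strand.
ICAM1 before the start site, chr19:10270870-10271119: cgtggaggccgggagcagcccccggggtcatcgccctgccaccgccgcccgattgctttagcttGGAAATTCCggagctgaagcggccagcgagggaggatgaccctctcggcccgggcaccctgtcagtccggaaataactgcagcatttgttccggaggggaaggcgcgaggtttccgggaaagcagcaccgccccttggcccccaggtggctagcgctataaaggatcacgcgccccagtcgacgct
CD44 3.03 kb upstream, gained, chr11:35135438-35135737: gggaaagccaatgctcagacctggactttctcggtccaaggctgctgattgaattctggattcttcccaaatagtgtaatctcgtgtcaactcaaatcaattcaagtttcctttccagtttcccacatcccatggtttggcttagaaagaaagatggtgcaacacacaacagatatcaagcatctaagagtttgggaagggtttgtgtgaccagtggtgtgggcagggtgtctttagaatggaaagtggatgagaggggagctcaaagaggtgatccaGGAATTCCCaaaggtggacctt
CD47 39.1 kb upstream, chr3:108132168-108132467: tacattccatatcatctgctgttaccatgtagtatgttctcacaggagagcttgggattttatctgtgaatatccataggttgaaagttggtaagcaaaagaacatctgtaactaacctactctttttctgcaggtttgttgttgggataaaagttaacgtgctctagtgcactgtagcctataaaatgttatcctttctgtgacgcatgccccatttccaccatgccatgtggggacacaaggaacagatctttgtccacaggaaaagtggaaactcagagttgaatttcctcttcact
CD44 25.9 kb upstream, chr11:35111539-35111838: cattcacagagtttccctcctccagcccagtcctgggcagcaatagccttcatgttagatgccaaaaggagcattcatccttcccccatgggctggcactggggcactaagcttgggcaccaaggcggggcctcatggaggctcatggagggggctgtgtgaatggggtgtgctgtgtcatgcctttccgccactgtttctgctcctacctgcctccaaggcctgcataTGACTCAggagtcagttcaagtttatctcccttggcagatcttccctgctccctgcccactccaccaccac
The window before the ICAM1 start held 1 κB match and no AP-1 match, and so did the gained CD44 window. The CD44 match fits only GGGANTTCC, the string added after the windows had been read, so its presence there is no independent result. An AP-1 match stood in the CD44 window 25.9 kb upstream, while the CD47 window held a match to neither motif. Outside these central bases, the whole CD47 region held 2 AP-1 and 2 κB matches, the gained CD44 region 2 AP-1 matches and the other CD44 region 1 κB match. Of 55219 such 300-base windows at the centres of all merged regions, 26.1% held the AP-1 motif and 9.25% the κB motif (either string), and of 35116 windows of 250 bases before RefSeq start sites, 6.57% and 9.23% did. A match is a string of letters and no evidence of binding, and a window without one says nothing of the factor.

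Measured as covered length, the number of bases under peaks in the gene window, CD47 was the only member called with TWEAK. It was the 1 member called higher with TWEAK in control MDA-MB-231 cells and the 1 called higher in control Hs578T cells, by limma with Benjamini-Hochberg adjustment over 17915 genes and a threshold of 0.05. In the same comparisons 6.77% and 4.84% of all genes tested were called, of which 3.42% and 2.08% were higher. No member was called in Fn14 KO cells of either line, nor did any member pass an unadjusted p of 0.05 there, and over all genes 0.0112% and 0% were called. The direct test, the TWEAK difference in control cells minus that in Fn14 KO cells over both lines, also called CD47 alone, against 4.71% of all genes and 2.63% higher. This test shares its control lists with the single-line comparisons, so the results are not independent of each other.

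**Figure D1:**
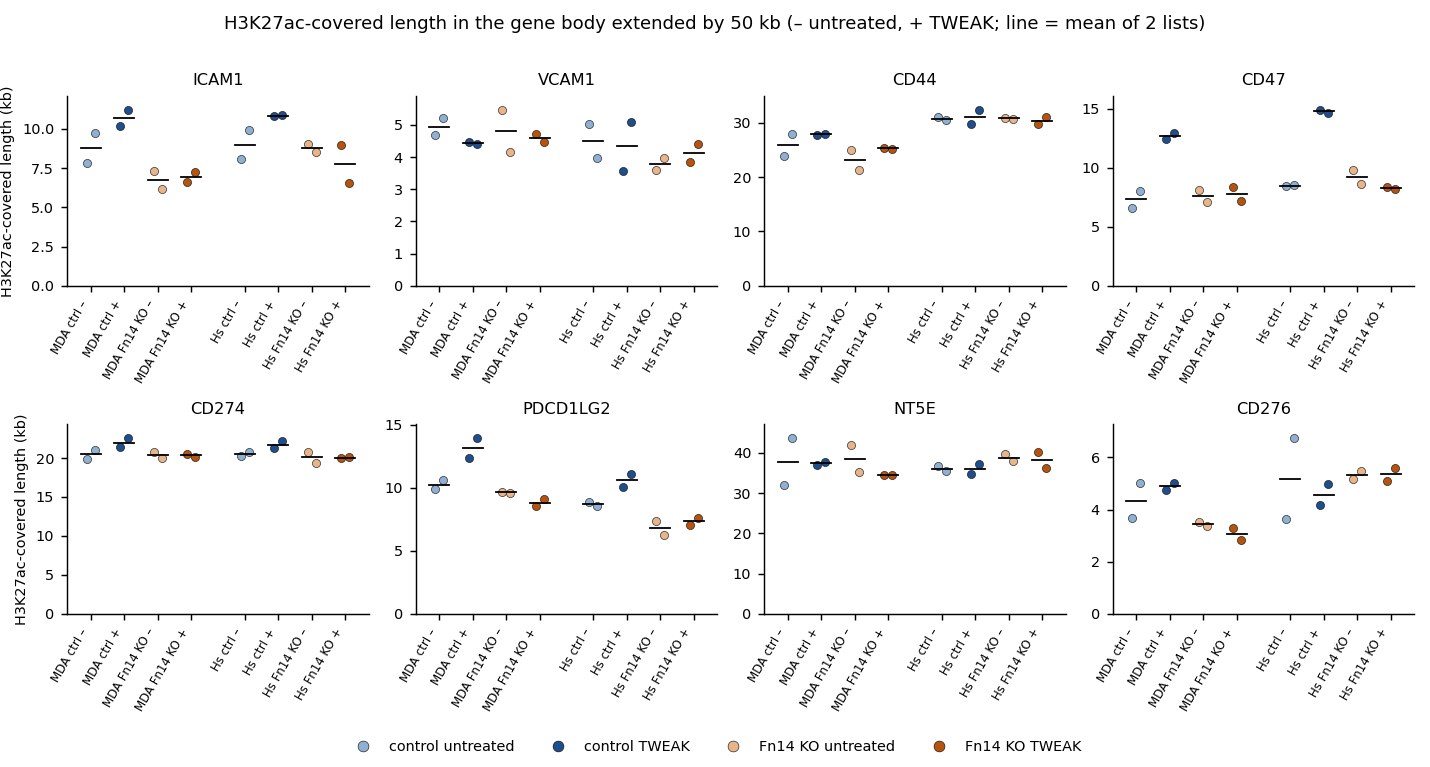
H3K27ac covered length (kb, vertical axis) in the gene window of each of the 8 members, by line, genotype and treatment (horizontal axis); each dot is 1 list and each line the mean of 2 lists. In the CD47 panel the 4 control TWEAK lists sit between 12.4 and 14.9 kb, above all 12 other lists, whereas the VCAM1, CD44 and NT5E panels show no such step.

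Peak strength gave more calls. The highest fold enrichment over background that the authors' peak caller assigned to any peak in the gene window was called higher with TWEAK for 3 members in control MDA-MB-231 cells (CD44, CD47 and NT5E) and for 2 in control Hs578T cells (CD44 and NT5E), where 18.7% and 15.5% of all genes were called and 14.4% and 12.3% were higher. In the control minus Fn14 KO test 5 members were called, all higher (CD44, CD47, NT5E, and CD274 and PDCD1LG2 through a peak that both windows hold), against 20.2% of all genes and 17.1% higher. In the promoter window the highest fold enrichment was called for ICAM1 in both lines, where 7.72% and 4.65% of 12548 genes were called (4.65% and 2.79% higher), and in the control minus Fn14 KO test for ICAM1, CD44 and PDCD1LG2, all higher, against 6.8% of genes (4.65% higher). Covered length in the promoter window was called for none of the 7 members with a promoter peak by limma in any comparison, with 1 member at an unadjusted p under 0.05 in control Hs578T cells and 0 in the others. Of all genes 1.16%, 1.24% and 1.31% were called there in the 3 comparisons just named, 0.12% and 0.112% with TWEAK after Fn14 KO (MDA-MB-231 and Hs578T), 0.661% and 0.271% between untreated genotypes and 0.47% between lines. Neither enrichment measure called a member with TWEAK in Fn14 KO cells, where 0.0335% and 0.0558% of genes were called in gene windows and 0.0956% and 0.104% in promoter windows. At an unadjusted p under 0.05 by limma there were 2 members in gene windows and 1 in promoter windows in MDA-MB-231 Fn14 KO cells and 0 in Hs578T Fn14 KO cells. The median of all genes shifted by 0.09 in each line on the log2 scale of highest enrichment in gene windows, so the members' differences are to be read against that shift.

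To place the changes, peaks of the 16 lists were merged into regions. Those called intergenic below touched no protein-coding gene, and other types of gene were not checked. The member windows held 61 distinct regions found in at least 2 lists, of which 32 had a peak in every list. With TWEAK in control cells, 6 of the 61 gained a peak in both replicates of MDA-MB-231 and 6 in both of Hs578T, and 2 lost one in each line. Over all regions 5.58% and 5.09% were gained and 4.49% and 4.65% lost. Gains shared by both lines numbered 3, against 2.48% of all regions. With Fn14 knocked out none of the 61 was gained and 1 was lost, in MDA-MB-231. Over all regions the gains were then 0.321% (MDA-MB-231) and 1.05% (Hs578T), and the losses 1.35% and 0.829%. The enrichment of the 32 regions present in every list was then fitted together with all 28337 such regions, a fit added after the window values had been seen. It called 7 member regions higher and 4 lower in control MDA-MB-231 cells (19.3% and 11.1% of all regions), 7 higher and 3 lower in control Hs578T cells (15.4% and 9.44%), and 9 higher and 4 lower in control minus Fn14 KO cells (20.1% and 8.55%). With each list centred on its own median these counts were 7 and 5, 7 and 3, and 9 and 4, while over all regions the split became 17.4% higher and 18.3% lower in MDA-MB-231, 15% and 14.5% in Hs578T and 16.7% and 16.3% in control minus Fn14 KO. In Fn14 KO cells limma called 0 of all 28337 regions with TWEAK in either line, and 1263 and 424 of them had an unadjusted p under 0.05. In bulk chromatin, more acetylation per cell and more cells with the mark cannot be told apart.

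**Figure D2:**
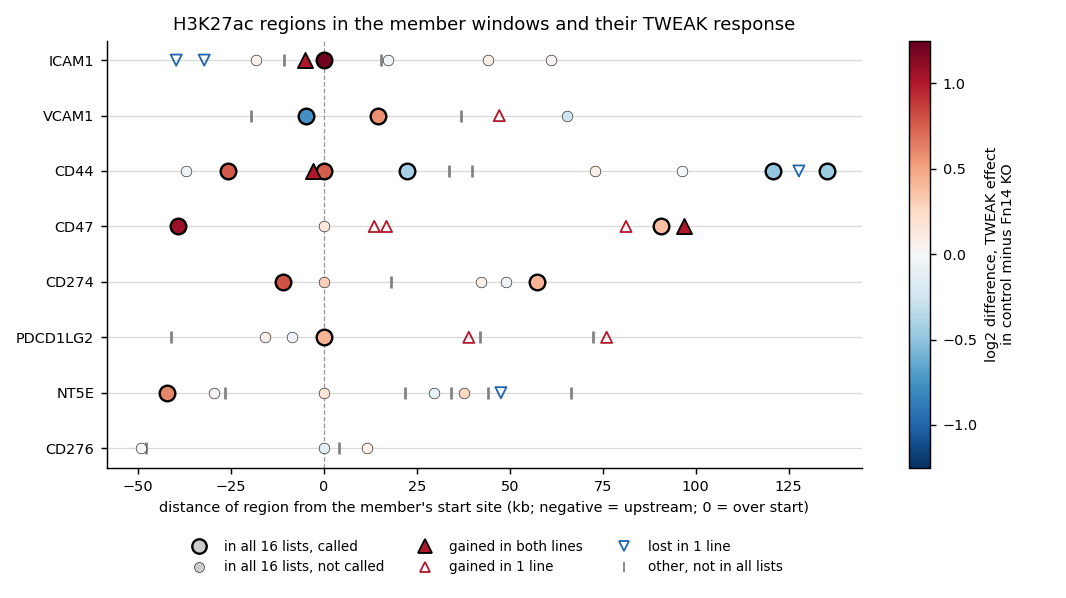
Map of merged H3K27ac regions around each member, with the distance from the start site in kb on the horizontal axis and 1 row of marks per member; circles are regions with a peak in all 16 lists, coloured by the log2 TWEAK difference in control minus Fn14 KO cells and large with a thick outline where that was called at an adjusted p of 0.05, triangles are regions gained or lost in control cells, and ticks are other regions. The 9 higher and 4 lower calls are spread over 7 members, with the PDCD1LG2 start drawn for CD274 too, and CD276 shows none.

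ICAM1 (chr19:10271093-10286615, plus strand, hg38), the leukocyte integrin ligand, gained acetylation at its start site. The highest fold enrichment within 2 kb of the start was 4.96 and 5.13 in untreated and 12.2 and 12.2 in TWEAK-treated control MDA-MB-231 cells, and 3.80 and 3.66 in untreated and 9.37 and 7.61 in treated control Hs578T cells. Fn14 KO cells had 4.98 and 4.05 untreated and 4.32 and 3.81 treated in MDA-MB-231, and 3.96 and 3.10 untreated and 3.33 and 2.65 treated in Hs578T. All 4 control TWEAK lists lay above the other 12, with no overlap. On the log2(fold enrichment + 1) scale, on which all differences in enrichment here are given, TWEAK raised it by 1.13 in MDA-MB-231 control cells (2.19-fold, SE 0.13, limma adjusted p = 0.00078) and by 1.00 in Hs578T control cells (2.0-fold, adjusted p = 0.0025). The differences in Fn14 KO cells were −0.12 (95% interval −0.42 to 0.18) and −0.18 (−0.48 to 0.11), and the control minus Fn14 KO difference was 1.22 (2.32-fold, adjusted p = 0.00039). All 3 calls held when any single list was left out. They ended when peaks with a −log10 q-value under 5 were dropped in both single-line comparisons (adjusted p = 0.478 in MDA-MB-231 and 0.0578 in Hs578T), and in all 3 when every list was trimmed to 39544 peaks (0.202, 0.303 and 0.0679). Under the stricter q-value the promoter peak remained in all 4 control TWEAK lists and in 4 of the 12 other lists. The peak also covered more of the promoter window with TWEAK, from 1.71 and 1.42 kb to 2.60 and 2.49 kb in MDA-MB-231 control lists and from 0.599 and 2.04 kb to 3.31 and 3.28 kb in Hs578T control lists, and it covered 0.210 to 1.63 kb in Fn14 KO lists, a measure that was not called.

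**Figure D3:**
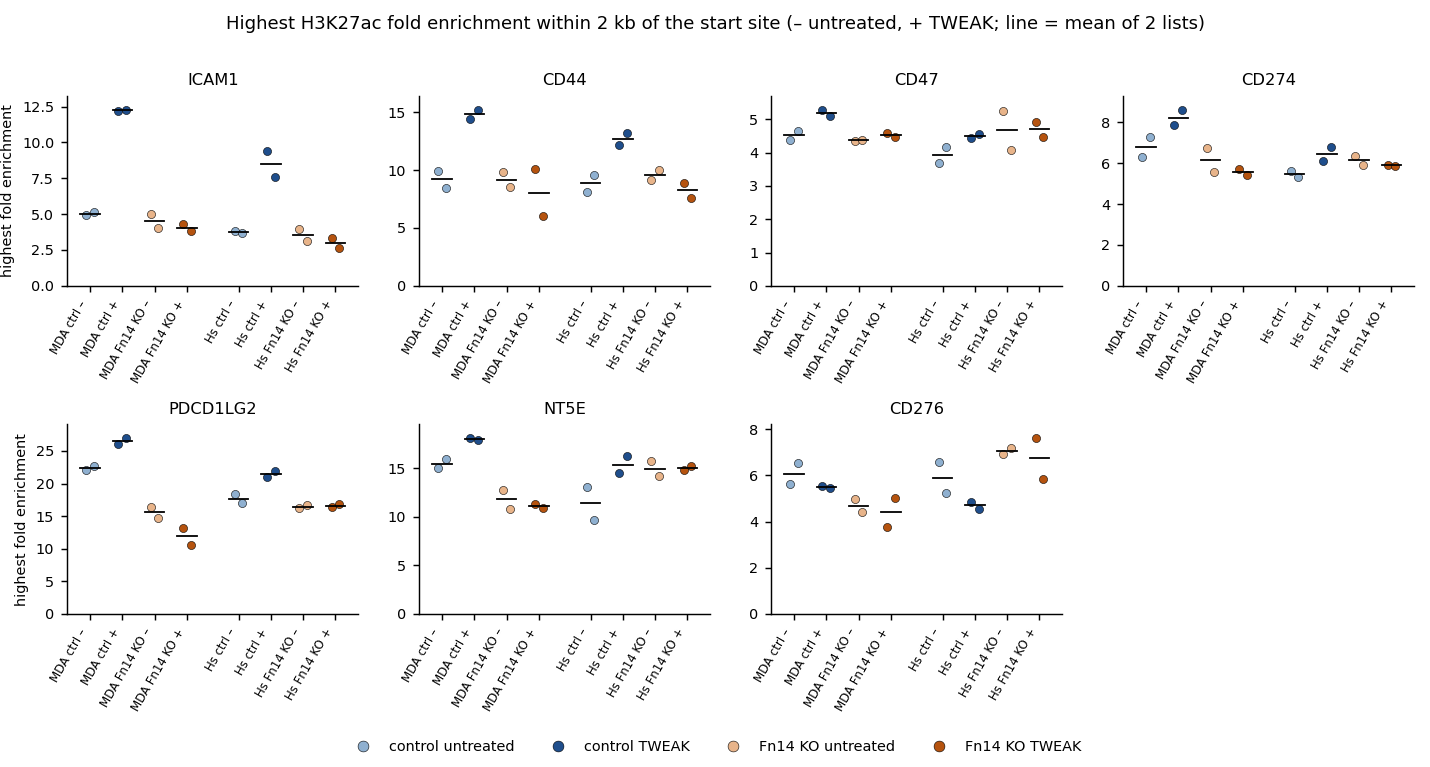
Highest fold enrichment of an H3K27ac peak within 2 kb of the start site (vertical axis) for each member except VCAM1, by line, genotype and treatment (horizontal axis); each dot is 1 list and each line the mean of 2 lists. The ICAM1 control TWEAK lists stand at 7.61 to 12.2 against 2.65 to 5.13 in the other 12 lists, and VCAM1, which has no promoter peak in any list, is not drawn.

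Upstream of ICAM1, an intergenic region at chr19:10265109-10266080, 5.04 kb before the start, had peaks in the 4 control TWEAK lists and in no other list. Their fold enrichment was 4.46 and 4.76 in MDA-MB-231 and 4.66 and 4.63 in Hs578T. Elsewhere in the window, the region chr19:10231010-10231414, over exons of S1PR2 and DNMT1, lost peaks of 3.25 and 3.31 in MDA-MB-231 control cells and of 3.80 and 3.12 in MDA-MB-231 Fn14 KO cells, and it had none in Hs578T. The intergenic region chr19:10237976-10238953 lost peaks of 4.28 and 3.19 in Hs578T control cells and kept peaks of 3.37 to 4.64 in all 4 Hs578T Fn14 KO lists. Covered length over the whole ICAM1 window was 7.81 and 9.76 kb untreated and 10.2 and 11.2 kb treated in MDA-MB-231 control cells, and 8.06 and 9.90 kb and 10.8 and 10.9 kb in Hs578T control cells. Fn14 KO lists spanned 6.17 to 7.30 kb (MDA-MB-231) and 6.57 to 9.02 kb (Hs578T). The TWEAK differences of 0.26 and 0.25 on the log2(covered bp + 1000) scale were not called (adjusted p = 0.36 and 0.38), and this window also held the start sites of 9 other genes, among them ICAM4, ICAM5 and RAVER1.

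VCAM1 (chr1:100719742-100739045, plus strand), the other integrin ligand, had no promoter peak in any of the 16 lists, and its window held regions that changed in opposite directions. An intergenic region 4.7 kb upstream at chr1:100712518-100715044 had a fold enrichment of 9.98 and 11 untreated and 5.77 and 5.81 treated in MDA-MB-231 control cells, and of 7.5 and 5.26 untreated and 2.63 and 3.49 treated in Hs578T control cells. In Fn14 KO lists it was 7.88 and 6.47 untreated and 6.80 and 6.60 treated in MDA-MB-231, and 6.20 and 6.25 untreated and 5.77 and 6.5 treated in Hs578T. Within each line the control TWEAK lists were the lowest of the 8. The region fell with TWEAK by 0.76 on the log2 scale in MDA-MB-231 control cells (limma adjusted p = 2.2e-05, SE 0.14) and by 0.85 in Hs578T control cells (adjusted p = 3.7e-06), and the control minus Fn14 KO difference was −0.75 (adjusted p = 2.8e-05). In contrast, a region 14.4 kb downstream of the start at chr1:100734184-100735826, which touches an exon of VCAM1, was 5.87 and 7.47 untreated and 7.78 and 9.03 treated in MDA-MB-231 control cells, and 4.90 and 4.13 untreated and 9.29 and 7.83 treated in Hs578T control cells. It was 5.18 to 6.77 in MDA-MB-231 Fn14 KO lists and 3.29 to 4.17 in Hs578T Fn14 KO lists. The control TWEAK lists were the highest of each line, and the difference was called in Hs578T (0.79, adjusted p = 1.5e-05) and in control minus Fn14 KO (0.58, adjusted p = 0.0013) but not in MDA-MB-231 (0.30, adjusted p = 0.10). The difference between the lines in this response, −0.49, was not called (adjusted p = 0.94). As a percentile within each list the control minus Fn14 KO call was lost (0.083). Hs578T control cells also gained a small region at chr1:100766923-100767251, with peaks of 3.98 and 3.36. Covered length of the window ranged from 3.58 to 5.46 kb over all 16 lists, without a call in any comparison.

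CD44 (chr11:35138882-35232402, plus strand), the hyaluronan receptor, was covered over 21.3 to 32.3 kb of its 194 kb window, and TWEAK gave no call on that length (differences of 0.10 and 0.01 in control cells). Enrichment changed. An intergenic region 25.9 kb upstream at chr11:35110099-35113277 was 17.3 and 18.1 untreated and 29.9 and 29.2 treated in MDA-MB-231 control cells, and 18.6 and 18.9 untreated and 31.1 and 31.3 treated in Hs578T control cells. Fn14 KO lists ranged from 12.9 to 17.0 (MDA-MB-231) and from 14.9 to 17.5 (Hs578T), so the 4 control TWEAK lists stood clear of the other 12. The differences were 0.71 in MDA-MB-231 (1.64-fold, limma adjusted p = 2.7e-05), 0.70 in Hs578T (1.63-fold, adjusted p = 4.6e-05) and 0.76 in control minus Fn14 KO (1.70-fold, adjusted p = 9.3e-06), each with an SE of 0.13. Expressed as a percentile within each list, the last of these had an adjusted p of 0.107 and the Hs578T difference one of 0.27. The highest enrichment of the whole window was that of this region in most lists, with differences of 0.56 (adjusted p = 0.0058), 0.70 (0.0023) and 0.66 (0.0023) among gene windows, and these calls too were lost as percentiles (0.104, 0.221 and 0.227). With 10 kb flanks, which leave this region out, the 3 differences turned to −0.26, −0.047 and −0.13, and with 100 kb flanks the MDA-MB-231 difference turned to −0.13, none of them called. At the start site the highest enrichment was 9.94 and 8.48 untreated and 14.5 and 15.2 treated in MDA-MB-231 control cells, and 8.12 and 9.57 untreated and 12.2 and 13.2 treated in Hs578T control cells. It was 5.99 to 10.1 in the 8 Fn14 KO lists, below all 4 control TWEAK lists. Among all promoter windows it was called in control minus Fn14 KO (0.76, adjusted p = 0.038) and in neither line alone (0.63 and 0.48, adjusted p = 0.069 and 0.19), and among all regions it was called in all 3 (adjusted p = 0.00059, 0.012 and 5.3e-05), though in none as a percentile (0.140, 0.283 and 0.0594). The promoter call was lost on leaving out any of 13 of the 16 lists (adjusted p of 0.0513 to 0.0861) and as a percentile (0.105), and the Hs578T region call without Hs578T control untreated replicate 1 (0.142) or Hs578T control TWEAK replicate 2 (0.0965).

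A region 3.03 kb upstream of CD44, at chr11:35135029-35136146, was gained in control cells of both lines, with peaks of 3.47 and 4.94 in MDA-MB-231 and 3.04 and 3.43 in Hs578T. Its 1 other peak, of 2.62, was in Hs578T Fn14 KO TWEAK replicate 2. Inside the gene, the intronic region chr11:35161425-35168325 moved the other way in MDA-MB-231 control cells, from 21.4 and 15.0 to 11 and 10.9, and was 12.0 and 15.1 untreated and 12.8 and 10.5 treated in Hs578T control cells. Its Fn14 KO lists spanned 11.4 to 17.3. It fell by 0.66 in MDA-MB-231 (limma adjusted p = 0.00045), a call lost without MDA-MB-231 control untreated replicate 1 (0.0846), while Hs578T was not called (−0.20, adjusted p = 0.36). The control minus Fn14 KO difference of −0.41 (adjusted p = 0.034) was lost on leaving out any of 9 of the 16 lists (up to 0.169), as a percentile (0.0571) and without the log (0.148). Past the end of CD44, over the neighbouring SLC1A2, a glutamate transporter gene, regions at chr11:35260073-35261600 and chr11:35274587-35277267 fell in control cells of both lines. The first went from 4.91 and 5.49 to 3.35 and 3.19 in MDA-MB-231 and from 5.44 and 5.37 to 4.37 and 2.98 in Hs578T (−0.54 and −0.47, adjusted p = 0.0029 and 0.012). The second went from 4.90 and 5.82 to 3.74 and 3.05 in MDA-MB-231 and from 6.76 and 8.49 to 5.06 and 5.18 in Hs578T (−0.53 and −0.49, adjusted p = 0.0017 and 0.0054). For the first, Fn14 KO lists ranged from 3.17 to 4.74 in MDA-MB-231, overlapping the control TWEAK lists, and from 5.67 to 6.71 in Hs578T, above them. For the second, MDA-MB-231 Fn14 KO lists ranged from 3.66 to 4.49, overlapping the MDA-MB-231 control TWEAK lists, and Hs578T Fn14 KO lists stood at 9.30 to 10.9, above all Hs578T control lists. The control minus Fn14 KO differences were −0.49 (adjusted p = 0.0072) and −0.45 (0.0085). As percentiles all 3 calls on the first region were lost (0.0619, 0.110 and 0.0794), and without the log those in Hs578T (0.0866) and control minus Fn14 KO (0.0852). Without the log the second region's calls in MDA-MB-231 (0.0558) and control minus Fn14 KO (0.0525) were lost. Leaving out Hs578T control TWEAK replicate 2 ended the first region's call in Hs578T (0.347) and in control minus Fn14 KO (0.0509), and leaving out Hs578T control untreated replicate 1 ended the Hs578T call too (0.0554). The second region's calls were lost without MDA-MB-231 control TWEAK replicate 2 (0.0766 in MDA-MB-231) and without Hs578T control untreated replicate 2 (0.154 in Hs578T). Hs578T control cells also lost peaks of 3.32 and 3.36 at chr11:35266921-35268618, again over SLC1A2.

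CD47 (chr3:108043091-108091862, minus strand), the macrophage checkpoint ligand, showed the broadest response. Its window was covered over 6.58 and 8.06 kb untreated and 12.4 and 13.0 kb treated in MDA-MB-231 control cells, and over 8.44 and 8.53 kb untreated and 14.9 and 14.7 kb treated in Hs578T control cells. For Fn14 KO cells the values were 8.12 and 7.09 kb untreated and 8.36 and 7.16 kb treated in MDA-MB-231, and 9.78 and 8.66 kb untreated and 8.37 and 8.22 kb treated in Hs578T. The number of peaks went from 4 and 4 to 7 and 7 in MDA-MB-231 control cells and from 4 and 4 to 7 and 8 in Hs578T control cells, against 3 to 5 in every Fn14 KO list. On the log2(covered bp + 1000) scale the difference was 0.73 in MDA-MB-231 (1.65-fold, SE 0.12, 95% interval 0.48 to 0.98, limma adjusted p = 0.0025) and 0.74 in Hs578T (1.66-fold, interval 0.49 to 0.99, adjusted p = 0.0032). In Fn14 KO cells it was 0.02 (interval −0.23 to 0.27) and −0.14 (−0.39 to 0.12), and the control minus Fn14 KO difference was 0.79 (1.72-fold, adjusted p = 0.0019). The size in MDA-MB-231 and Hs578T differed by −0.01 (interval −0.36 to 0.34). Each call held without any single list. The MDA-MB-231 call was lost with peaks of a −log10 q-value under 5 dropped (adjusted p = 0.187) and with 10 kb flanks (0.236), and the control minus Fn14 KO call with 10 kb flanks (0.117), which leave out the distal regions described next. An exact two-sided permutation test on the control minus Fn14 KO difference of 6.23 kb, over all exchanges of treatment labels within line and genotype, gave p = 0.0123 without adjustment for the 8 genes. The same exact test gave differences of 2.52 kb for PDCD1LG2 (p = 0.0247), 2.29 kb for ICAM1 (p = 0.0417) and 1.40 kb for CD274 (p = 0.0586), and p from 0.460 to 0.875 for VCAM1, CD44, NT5E and CD276. The smallest p this design allows is 0.00154.

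Upstream of CD47, the intergenic region chr3:108130158-108134477, 39.1 kb before the start, rose most among the regions of the CD47 window with a peak in all 16 lists. Its fold enrichment was 6.69 and 6.54 untreated and 13.7 and 14.0 treated in MDA-MB-231 control cells, and 5.79 and 6.0 untreated and 12.4 and 15.5 treated in Hs578T control cells. Fn14 KO lists ranged from 5.10 to 6.18 (MDA-MB-231) and from 4.76 to 5.34 (Hs578T), so that the control TWEAK lists were clear of all others. The differences were 0.96 (1.95-fold, SE 0.13, limma adjusted p = 5.5e-08), 1.11 (2.15-fold, adjusted p = 2.7e-09) and 1.07 for control minus Fn14 KO (2.10-fold, adjusted p = 5.0e-09), and in Fn14 KO cells −0.07 (95% interval −0.34 to 0.20) and 0.00 (−0.27 to 0.27). Downstream, the region chr3:107992953-107994202, 96.8 kb past the start, was gained in both lines, with peaks of 4.15 and 5.33 in MDA-MB-231 and 5.04 and 4.01 in Hs578T control TWEAK lists and none in the other 12. Its neighbour chr3:107998487-108000394 was 9.11 and 10.9 untreated and 14.4 and 13.4 treated in MDA-MB-231 control cells, and 12.0 and 10.4 untreated and 12.6 and 12.1 treated in Hs578T control cells. This difference was called in MDA-MB-231 (0.44, adjusted p = 0.009) and not in Hs578T (0.13, adjusted p = 0.52). It was lost without MDA-MB-231 control untreated replicate 1 (0.161) or TWEAK replicate 1 (0.0911), and the control minus Fn14 KO call (0.38, adjusted p = 0.027) without any of 7 of the 16 lists (up to 0.0861). Both were lost as percentiles (0.0629 and 0.156). This peak was the strongest of the window in most lists. In control TWEAK replicate 2 of either line, however, the region 39.1 kb upstream was stronger (14.0 in MDA-MB-231 and 15.5 in Hs578T). The window's highest enrichment thus mixed both regions. It was called in MDA-MB-231 (0.47, adjusted p = 0.024), which was lost without MDA-MB-231 control untreated replicate 1 (0.191), TWEAK replicate 1 (0.113) or TWEAK replicate 2 (0.0977). The control minus Fn14 KO call on it (0.48, adjusted p = 0.022) was lost without MDA-MB-231 control untreated replicate 1 (0.0529), Hs578T control untreated replicate 2 (0.0541), Hs578T control TWEAK replicate 2 (0.054) or Hs578T Fn14 KO untreated replicate 2 (0.0522). As percentiles both were lost (0.0613 and 0.0866), and with 10 kb flanks the latter (0.0999).

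Further CD47 regions were gained in 1 line only by the peak criterion. At chr3:108005539-108009771, 81.3 kb downstream, peaks of 6.12 and 7.89 appeared in MDA-MB-231 control cells, where Hs578T control cells already had 2.80 and 3.20 and rose to 5.26 and 7.60. At chr3:108075969-108077472, in an intron 13.6 kb from the start, peaks of 4.72 and 4.47 appeared in Hs578T control cells, where MDA-MB-231 control cells went from 3.56 and 2.78 to 6.20 and 6.46. In these regions, a gain called in one line was thus a rise from a weak peak in the other. That did not hold for a smaller Hs578T gain at chr3:108073850-108074174, also in an intron. It had peaks of 3.02 and 3.05 in the Hs578T control TWEAK lists and none in any other list. The difference between the lines was not tested for any of these regions, which lacked a peak in some lists. The CD47 start site itself differed little. Its enrichment was 4.39 and 4.66 untreated and 5.27 and 5.11 treated in MDA-MB-231 control cells, and 3.68 and 4.18 untreated and 4.45 and 4.55 treated in Hs578T control cells, against 4.09 to 5.25 in Fn14 KO lists. The groups overlapped, and the differences of 0.16 in each line were not called.

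**Figure D4:**
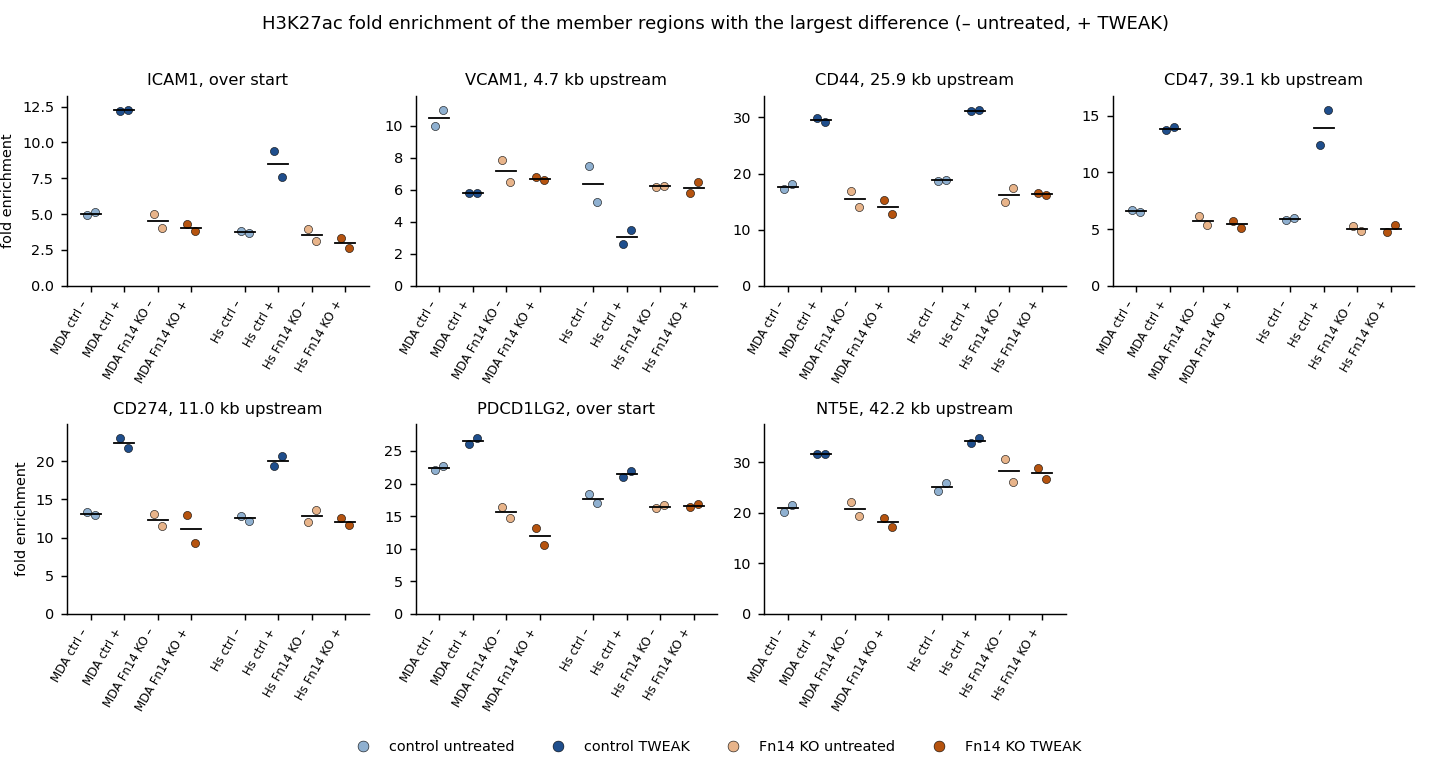
Highest fold enrichment (vertical axis) of the H3K27ac region with the largest called control minus Fn14 KO difference for each of 7 members, by line, genotype and treatment (horizontal axis); each dot is 1 list and each line the mean of 2 lists, and the distance of the region from the start site is given in kb. The CD47 region 39.1 kb upstream stands at 12.4 to 15.5 in control TWEAK lists against 4.76 to 6.69 in the other 12, and the VCAM1 region 4.7 kb upstream is lowest of its line in the control TWEAK lists.

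CD274 (chr9:5450503-5470566) and PDCD1LG2 (chr9:5510531-5571282), the genes of the PD-1 ligands, lie next to each other on the plus strand, and their windows overlap. CD274 was marked throughout its promoter window, with all 4001 bp covered in every list. Its highest promoter enrichment was 6.29 and 7.28 untreated and 7.87 and 8.59 treated in MDA-MB-231 control cells, and 5.64 and 5.33 untreated and 6.11 and 6.77 treated in Hs578T control cells. In Fn14 KO lists it was 5.43 to 6.76 (MDA-MB-231) and 5.88 to 6.34 (Hs578T), and no difference with TWEAK was called (control minus Fn14 KO 0.31, limma adjusted p = 0.10). A larger difference lay 11 kb upstream, at chr9:5435475-5439524 over the start site of PLGRKT, a plasminogen receptor gene. That region was 13.3 and 12.9 untreated and 23 and 21.8 treated in MDA-MB-231 control cells, and 12.8 and 12.2 untreated and 19.4 and 20.7 treated in Hs578T control cells. With 9.27 to 13.1 (MDA-MB-231) and 11.7 to 13.6 (Hs578T), all Fn14 KO lists lay below all control TWEAK lists. It rose by 0.73 in MDA-MB-231 (1.66-fold, SE 0.14, adjusted p = 2.7e-05), by 0.64 in Hs578T (1.56-fold, adjusted p = 0.00028) and by 0.80 in control minus Fn14 KO (1.74-fold, adjusted p = 6.8e-06), and as a percentile within lists the Hs578T call was lost (0.07). Covered length of the CD274 window ranged from 19.4 to 22.5 kb over all lists, and the differences of 0.10 and 0.08 were not called.

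PDCD1LG2 had the strongest peak of both windows at its own start, in the region chr9:5507737-5512910. Its enrichment was 22 and 22.7 untreated and 26.0 and 26.9 treated in MDA-MB-231 control cells, and 18.4 and 17.0 untreated and 21.0 and 21.9 treated in Hs578T control cells. In Fn14 KO cells it was 16.4 and 14.7 untreated and 13.1 and 10.6 treated in MDA-MB-231, and 16.2 and 16.6 untreated and 16.5 and 16.8 treated in Hs578T. Control TWEAK lists were the highest of each line, by 0.23 and 0.26 over untreated lists, which was not called in either line (limma adjusted p = 0.19 and 0.14 among regions), and the difference in MDA-MB-231 Fn14 KO cells was −0.37 (adjusted p = 0.96). The control minus Fn14 KO difference of 0.43 was called (adjusted p = 0.011 among regions, 0.029 among promoter windows and 0.012 among gene windows, the last 0.081 as a percentile). Among regions it was lost without MDA-MB-231 Fn14 KO TWEAK replicate 2 (0.051) and as a percentile (0.199), and among promoter windows without any of 10 of the 16 lists (up to 0.0704) and as a percentile (0.225). Covered length was 9.88 and 10.6 kb untreated and 12.3 and 13.9 kb treated in MDA-MB-231 control cells, 8.84 and 8.57 kb and 10.1 and 11.1 kb in Hs578T control cells, and 6.24 to 9.67 kb in Fn14 KO lists. Peaks in the window rose from 4 and 4 to 6 and 7, and from 5 and 5 to 7 and 8, and numbered 3 to 5 in Fn14 KO lists. The differences in covered length, 0.33 and 0.26, were not called (adjusted p = 0.086 and 0.19). MDA-MB-231 control cells gained 2 regions, chr9:5549516-5550778 inside the gene with peaks of 3.96 and 4.67, and chr9:5586581-5587703 past its end with peaks of 3.30 and 3.09, where Hs578T control TWEAK replicate 2 also had a peak of 2.73.

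NT5E (chr6:85449584-85495791, plus strand), the adenosine-producing ectoenzyme, was covered over 32.0 to 43.6 kb of its 146 kb window, with no call. Its strongest peak, in an intergenic region 42.2 kb upstream at chr6:85400816-85407919, was 20.2 and 21.5 untreated and 31.6 and 31.5 treated in MDA-MB-231 control cells, and 24.3 and 25.9 untreated and 33.7 and 34.7 treated in Hs578T control cells. The Fn14 KO values were 22.1 and 19.4 untreated and 19.0 and 17.2 treated in MDA-MB-231, and 30.6 and 26.0 untreated and 28.8 and 26.7 treated in Hs578T. The 4 control TWEAK lists were the highest of the 16. The differences were 0.58 in MDA-MB-231 (SE 0.10, limma adjusted p = 0.0025 among gene windows) and 0.43 in Hs578T (adjusted p = 0.015), and 0.61 in control minus Fn14 KO (adjusted p = 0.0018). Among regions the Hs578T call (adjusted p = 0.012) was lost without Hs578T control untreated replicate 1 (0.0969), TWEAK replicate 1 (0.0531) or TWEAK replicate 2 (0.0801), and as a percentile within lists no call on this peak held among regions (0.109, 0.822 and 0.298). Among gene windows the Hs578T call was also lost without Hs578T control untreated replicate 1 (0.0942), untreated replicate 2 (0.0502), TWEAK replicate 1 (0.0633) or TWEAK replicate 2 (0.0874), and as a percentile (0.626), as was the control minus Fn14 KO call (0.051). With 10 kb flanks, which leave the region out, all 3 were lost (0.301, 0.904 and 0.432). A second upstream region, chr6:85421201-85423432, 26.7 kb before the start, went from 3.50 and 4.36 to 8.33 and 8.15 in MDA-MB-231 control cells, with 3.03 to 3.51 in MDA-MB-231 Fn14 KO lists. In Hs578T control cells it had 1 untreated peak of 3.65 and treated peaks of 4.87 and 4.88, and it could not be tested because 2 of the 16 lists lacked it. At the start site NT5E enrichment was 15.0 and 15.9 untreated and 18.1 and 17.9 treated in MDA-MB-231 control cells, and 13.1 and 9.71 untreated and 14.5 and 16.3 treated in Hs578T control cells, which overlapped the Hs578T Fn14 KO lists (14.2 to 15.8) and was not called. The list with 9.71 had another peak, of 16.9, in the merged region over the start, chr6:85447696-85470516. That peak was above both treated Hs578T values. The region chr6:85497702-85499831 lost peaks of 3.21 and 3.25 in MDA-MB-231 control cells.

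CD276 (chr15:73683966-73714514, plus strand), the B7 family ligand, was the member without any TWEAK call in any measure. Promoter enrichment was 5.61 and 6.52 untreated and 5.54 and 5.45 treated in MDA-MB-231 control cells, and 6.58 and 5.23 untreated and 4.86 and 4.55 treated in Hs578T control cells. Fn14 KO lists spanned 3.78 to 7.61, around all of these values. The differences were −0.12 and −0.27, and −0.12 in control minus Fn14 KO. Covered length was 2.82 to 6.73 kb over the 16 lists, and none of the 5 regions in its window was gained or lost.

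Fn14 KO and control cells were also compared without TWEAK. Covered length was called for no member by limma in either line, with 1 member in each line at an unadjusted p under 0.05, and 1.54% and 0.346% of all genes were called. Highest enrichment in the gene window was lower in Fn14 KO cells for 6 members in MDA-MB-231: ICAM1 (−0.31, adjusted p = 0.021), VCAM1 (−0.49, 0.017), CD44 (−0.32, 0.040), CD276 (−0.38, 0.032), and CD274 and PDCD1LG2 (−0.50, 0.0029). In that comparison 48.6% of all genes were called, 47.2% of genes being lower in the KO, and the median gene shifted by −0.31, so the members moved in the direction of the lists as a whole. For ICAM1 and CD276 the window's highest peak in these lists lay over the start of another gene, RAVER1 and NPTN respectively. At the ICAM1 start itself, untreated MDA-MB-231 lists stood at 4.96 and 5.13 in control and 4.98 and 4.05 in Fn14 KO cells. At the CD276 start these lists stood at 5.61 and 6.52 in control and 4.96 and 4.42 in Fn14 KO cells. With each list centred on its own median, only the peak shared by CD274 and PDCD1LG2 kept its call. Leaving out MDA-MB-231 Fn14 KO untreated replicate 2 ended the calls of ICAM1 (0.10), VCAM1 (0.141), CD44 (0.305) and CD276 (0.152), leaving out MDA-MB-231 control untreated replicate 1 those of ICAM1 (0.0838), CD44 (0.228) and CD276 (0.229), and leaving out MDA-MB-231 control untreated replicate 2 those of ICAM1 (0.0559) and VCAM1 (0.101). The CD44 call was lost on leaving out 10 of the 16 lists in turn. As a percentile within lists, its difference turned to 1.05 percentile points higher in the KO, not called. The call on the shared peak of CD274 and PDCD1LG2 held without any single list but was lost as a percentile (0.536). Among promoter windows PDCD1LG2 (−0.50, adjusted p = 0.0048) and NT5E (−0.37, 0.046) were lower, against 37.1% of all genes (36.4% lower). The PDCD1LG2 call held without any single list but was lost as a percentile (0.698), and that of NT5E was lost on leaving out 13 of the 16 lists in turn (up to 0.280). Of the 32 regions 7 were lower and none higher, against 29.7% and 2.69% of all regions, and 1 was lower after centring. This count was 0 without MDA-MB-231 Fn14 KO untreated replicate 2, 3 without MDA-MB-231 control untreated replicate 2 and 0 as percentiles. As given above, the q-values of MDA-MB-231 Fn14 KO lists were lower too, and their part in these differences was not tested. In Hs578T no member was called by limma for either enrichment measure, with 0 and 1 at an unadjusted p under 0.05, and 0.207% and 0.311% of all genes and 1.13% of all regions were called.

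Between the lines, in untreated control cells, no member differed in covered length (1 at an unadjusted p under 0.05 by limma, and 5.03% of all genes called). Highest enrichment in the gene window was higher in MDA-MB-231 than in Hs578T for VCAM1 (0.65, adjusted p = 0.0064) and for the CD274 and PDCD1LG2 peak (0.32, adjusted p = 0.029), where 33.9% of all genes were called (29.8% higher) and the median gene was 0.20 higher. In promoter windows PDCD1LG2 (0.32, adjusted p = 0.032) and NT5E (0.42, adjusted p = 0.034) were higher, against 28.7% of genes (26.7% higher). The merged region over the NT5E start was not called. It stood at 15.0 and 15.9 in MDA-MB-231 and at 13.1 and 16.9 in Hs578T. The 16.9, in Hs578T control untreated replicate 2, came from a peak outside the promoter window, where that list had 9.71. Of the 32 regions 5 were higher in MDA-MB-231 and 1 lower, against 18.5% and 10.2% of all regions, and the higher ones included the ICAM1 start (0.35, adjusted p = 0.046) and the VCAM1 region 4.7 kb upstream (0.65, adjusted p = 0.00038). The region counts were 2 higher and 0 lower without either MDA-MB-231 control untreated replicate 1 or Hs578T control untreated replicate 2, and 0 and 1 as percentiles. These calls were lost on leaving out single lists. Without Hs578T control untreated replicate 2 the adjusted p was 0.0644 for VCAM1, 0.159 for the CD274 and PDCD1LG2 peak, 0.170 and 0.242 for PDCD1LG2 and NT5E promoters, 0.169 for the ICAM1 start and 0.0611 for the VCAM1 region. Without MDA-MB-231 control untreated replicate 2 it was 0.119 for the shared peak, 0.137 and 0.152 for the same promoters and 0.156 for the ICAM1 start, and without MDA-MB-231 control untreated replicate 1 it was 0.0674, 0.0688, 0.0665 and 0.103. Leaving out Hs578T control untreated replicate 1 gave 0.0505 for the shared peak, 0.058 for the PDCD1LG2 promoter and 0.105 for the ICAM1 start, and leaving out either MDA-MB-231 control TWEAK list gave 0.0545 for the latter. The TWEAK difference itself was called different between MDA-MB-231 and Hs578T control cells for no member by limma in any measure, with 1 member at an unadjusted p under 0.05 for highest enrichment in gene windows and 0 for the other window measures. Of all genes 0.128% were called for covered length and 0.357% for highest enrichment in gene windows, 0.359% and 0.51% in promoter windows, and 0.00353% of all regions.

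Other genes of the same kinds were counted for covered length of the gene window. Of 24 other adhesion genes 22 could be tested, and TWEAK raised 2 and lowered 1 in MDA-MB-231 control cells and lowered 1 in Hs578T control cells. Over all genes 3.42% were higher and 3.35% lower in MDA-MB-231, and 2.08% and 2.76% in Hs578T. The median difference was 0.04 and −0.06, against −0.02 and −0.07 over all genes. In control minus Fn14 KO, NRCAM, a neuronal adhesion molecule, was called higher (0.67, adjusted p = 0.029) and MCAM, another immunoglobulin-type adhesion molecule, lower (−0.44, adjusted p = 0.042). NRCAM coverage was 6.60 and 7.23 kb untreated and 12.2 and 12.8 kb treated in MDA-MB-231 control cells, and 8.18 and 6.41 kb untreated and 11.8 and 10.5 kb treated in Hs578T control cells. Of 30 other immune checkpoint and ligand genes 26 could be tested, and 1 was raised in MDA-MB-231 and 1 lowered in Hs578T control cells, with medians of 0.03 and 0.02. In control minus Fn14 KO, HLA-E, which engages inhibitory receptors of natural killer cells, was higher (0.49, adjusted p = 0.015) and CD200, a ligand that restrains myeloid cells, lower (−0.47, adjusted p = 0.029). HLA-E coverage was 8.84 and 9.17 kb untreated and 12.1 and 12.9 kb treated in MDA-MB-231 control cells, and 10.8 and 10.3 kb untreated and 13.2 and 14.5 kb treated in Hs578T control cells. In MDA-MB-231 Fn14 KO cells it fell from 11.7 and 10.8 kb untreated to 9.9 and 8.3 kb treated (−0.28, limma unadjusted p = 0.018). This fall is part of the called HLA-E difference. Hs578T Fn14 KO cells had 10.1 and 9.98 kb untreated and 10.8 and 10.4 kb treated. For highest enrichment in gene windows, 6 of the 22 adhesion genes were higher and none lower in MDA-MB-231 control cells, 3 and 0 in Hs578T and 6 and 0 in control minus Fn14 KO, and of the 26 checkpoint genes 6 were higher and 4 lower, 4 and 3, and 4 and 2. Over all genes the shares were 14.4% higher and 4.29% lower, 12.3% and 3.13%, and 17.1% and 3.01%. None of the genes of either list was called in Fn14 KO cells by limma for either measure. In the single lines the adjusted p was 0.010 and 0.059 for NRCAM, 0.031 and 0.058 for MCAM, 0.025 and 0.066 for HLA-E and 0.063 and 0.020 for CD200 in MDA-MB-231 and Hs578T.

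Genes on the same chromosome within 1 Mb of a member were left out beforehand. Among the remaining genes, those whose covered length over the 16 lists was most like that of each member were sought. For CD47 these were TMEM202 and RFTN2 (Pearson r = 0.97 for both), for CD44 ABI2 (0.97) and NF1 (0.96), and for PDCD1LG2 TSPOAP1 (0.94) and COL4A6 (0.92). Among them was RET for ICAM1, and for CD274 they were HSD11B1 and G0S2, with r = 0.91 for each, and for VCAM1 PTK6 (0.88) and ELOVL7 (0.85). The values for NT5E (KLF12 and SUMF1) and for CD276 (SETD9 and MIER3) were 0.87. These are descriptions over 16 lists that share lines, treatments and the depth of each library.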

How the data were processed

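H3K27ac ChIP-seq peak lists were analysed from 16 samples, grouped by their titles. Per the study's methods, the authors used Trimmomatic for trimming, Bowtie2 for alignment to hg38 and MACS2, with input subtracted, for calling peaks, and filtered out blacklisted regions using bedtools. Tool versions were not given in the sources used here. The lists as deposited give for each peak a score, a ratio (the mean fold enrichment over background across the whole peak, so that a peak's extent affects it), and the −log10 p-value and −log10 q-value of the authors' peak caller. No list holds reads, so depth is unknown, count tests such as DiffBind could not be run, and weak peaks near the calling threshold may come and go.

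Gene positions were those of GENCODE release 44 on hg38, and the promoter window was set on the canonical transcript's start. Covered length was analysed as log2(bp + 1000) in gene windows and log2(bp + 100) in promoter windows, and enrichment as log2(highest value + 1), with 0 where there was no peak. All differences are on these scales, which understate changes of low values. Windows holding peaks of 2 or more lists were tested with limma 3.58.1 (R 4.3.3), 1 mean per group, two-sided, with Benjamini-Hochberg adjustment over all tested and a threshold of 0.05. Peaks sharing at least 1 bp were merged into 64545 regions, and 55219 in at least 2 lists were kept. Within a line and genotype, a region was gained where both lists with TWEAK and no list without it had a peak there, and lost where the opposite was true. Tables and figures were made with Python 3.11.15, numpy 2.4.6, pandas 2.3.3 and matplotlib 3.10.9.

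The members and the other gene lists were chosen with earlier results of these data known. All 8 members are named in every comparison, with every region gained or lost in both lines and up to 2 per member called in 1 line, plus a further such CD47 region. Other genes are named only where called in both TWEAK comparisons of control cells or in control minus Fn14 KO. Regions described from the region fit were chosen after their values were seen. Of 8 members, 7 matched a RefSeq promoter sequence. Alternatives were another pseudocount, flank, promoter width, peak threshold (−log10 q of 5), list length (39544 peaks), scaling, a replicate block and leaving out each list. The replicate numbers did not pair lists. Some sequences and genes are not reported here.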

Additional observations from a re-analysis of the deposited data

Results flagged for a closer look

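The TWEAK difference of 22 values differed between control and Fn14 KO cells over both lines, by the limma test of that difference itself. For covered length this was CD47 (0.79). For the highest enrichment in the gene window they were CD44 (0.66), CD47 (0.48), NT5E (0.61), and CD274 and PDCD1LG2 through their shared peak (0.43). In the promoter window they were ICAM1 (1.22), CD44 (0.76) and PDCD1LG2 (0.43).

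Among single regions, the start sites of ICAM1 (1.22), CD44 (0.76) and PDCD1LG2 (0.43) differed, as did the regions upstream of CD47 by 39.1 kb (1.07), of CD274 by 11 kb (0.80), of CD44 by 25.9 kb (0.76) and of NT5E by 42.2 kb (0.61). The VCAM1 region 14.4 kb past the start (0.58) and the CD47 region 90.6 kb past the start (0.38) also rose more in control cells. In the opposite direction went the VCAM1 region 4.7 kb upstream (−0.75) and the CD44 regions 22.3 kb (−0.41), 120.9 kb (−0.49) and 135.4 kb (−0.45) past the start. Several of these are the same peak seen in a window and as a region, so they are fewer independent results than values. With 2 lists per group, no group was large enough to be searched for a single list that stood apart.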

How the results depend on the processing

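Counts are members or regions called, the reported count first. For covered length, TWEAK in MDA-MB-231 gave 1, and 2 with values not on a log scale or scaled to the list total, 0 at −log10 q of 5 and 0 with 10 kb flanks. TWEAK in Hs578T gave 1, and 2 at −log10 q of 5, control minus KO 1, and 0 with 10 kb flanks, and lines 0, and 1 scaled. In promoters, covered length for Hs578T went from 0 to 1 at −log10 q of 5. For highest enrichment in gene windows, as percentiles of each list, counts became 1 (MDA-MB-231), 0 (Hs578T), 0 (control minus KO) and 1 (KO minus control in MDA-MB-231). Without the log they were 5 and 4 in MDA-MB-231 and Hs578T. With 10 kb flanks they were 0 in Hs578T and 2 in control minus KO, KO minus control in MDA-MB-231 was 2 when centred, and the lines gave 5 with 100 kb flanks. For promoters, counts without the log were 3 and 2 in MDA-MB-231 and Hs578T, 0 and 0 at −log10 q of 5, and 0 and 0 with trimmed lists. A trended spread gave 2 in MDA-MB-231, percentiles gave 1 in control minus KO and 0 in KO minus control (1 centred), and the lines gave 0 as percentiles and 1 with 5 kb. In the region fit, percentiles gave 7, 5, 5, 0 and 1 for MDA-MB-231, Hs578T, control minus KO, KO minus control in MDA-MB-231 and lines, a −log10 q of 5 gave 5 in Hs578T, 8 in control minus KO and 3 between lines, and centring gave 1 for KO minus control in MDA-MB-231. Regions gained in MDA-MB-231 were 3 and lost in Hs578T 1 at −log10 q of 5. Requiring 25% cover gave 1 lost in MDA-MB-231, 2 lost in its KO and 5 gained in both lines, and trimming gave 1 lost in both. Reversed values were those of CD44 for highest enrichment, −0.26 (10 kb) and −0.13 (100 kb) in MDA-MB-231, −0.047 in Hs578T and −0.13 in control minus KO (10 kb), where the distal peak falls outside the smaller flank, and 1.05 as a percentile for KO minus control in MDA-MB-231. Leaving out 1 list, covered length kept 1 to 1 in the 3 TWEAK comparisons of control cells and 0 to 0 elsewhere. Gene window enrichment gave 2 to 3, 1 to 2, 4 to 5, 2 to 6 and 0 to 3 (MDA-MB-231, Hs578T, control minus KO, KO minus control in MDA-MB-231, lines), promoter enrichment 1 to 2, 1 to 2, 1 to 4, 1 to 2 and 0 to 3, and regions 9 to 12, 7 to 10, 11 to 14, 0 to 9 and 2 to 7. Regions gained ranged from 6 to 8 in each line and from 0 to 2 in each KO, those lost from 2 to 6, 2 to 4, 1 to 4 and 0 to 2 (MDA-MB-231, Hs578T and their KO), and those shared by both lines from 3 to 4 gained and 0 to 1 lost. A replicate block gave 3 in place of 2 promoters and 5 in place of 6 regions between lines and moved no other count. Lists of one number deviated together by r of −0.20 to 0.11 over 17915 gene windows, so numbers did not pair them. For single genes and regions, 1621 of 1863 values kept direction and side of the threshold, 237 lost the call and 5 reversed. Apart from the smaller flank for CD44, the cause was not tested.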
